A study of Mus musculus with 4 samples.

Results

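The 9 genes described here encode enzymes that make NADPH in the cytosol and mitochondria of NIH-3T3 cells (a long-established line of mouse fibroblasts), together with the enzymes that feed the main route to it. They were chosen by name, as the pentose phosphate pathway, cytosolic malic enzyme and the NADP-dependent isocitrate dehydrogenases. They were found through the accession that the array files give for each probe, and 11 probes of 55378 with a value belonged to them (9 genes of 36838 gene names). Of these genes 8 had 1 probe and Me1 had 3. All 11 probes were well above background on all 4 arrays, so none of their values is a bound.

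Wild-type NIH-3T3 cells were profiled on 4 Agilent arrays of 1 colour, with 1 array per group. Cells were grown to confluency in every group. The untreated culture had no compound added, and each of the others was collected 24 h after addition of AR7, CA39 or CA77, dissolved in DMSO and used at 20 µM. These compounds were made to raise chaperone-mediated autophagy, the lysosomal breakdown of single cytosolic proteins, through the retinoic acid receptor alpha, and CA39 and CA77 were developed from AR7. No vehicle is named for the untreated culture, so DMSO and compound cannot be told apart in a difference that all treated cultures share.

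NADPH carries the electrons that cells use to reduce glutathione and thioredoxin and to build fatty acids and cholesterol. Glucose 6-phosphate dehydrogenase (G6pdx), lactonase (Pgls) and 6-phosphogluconate dehydrogenase (Pgd) form the oxidative arm of the pentose phosphate pathway, which yields NADPH directly. The isomerase Rpia, transketolase (Tkt) and transaldolase (Taldo1) form the arm that interconverts sugar phosphates and returns them to glycolysis. Malic enzyme (Me1) and isocitrate dehydrogenase 1 (Idh1) make NADPH in the cytosol and isocitrate dehydrogenase 2 (Idh2) makes it in mitochondria. G6pdx, Pgd, Taldo1, Tkt and Me1 are known targets of the transcription factor NRF2, which acts through the antioxidant response element, and Idh1 and Me1 are known to respond to the sterol regulators of lipid synthesis.

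The core of the antioxidant response element, TGACNNNGC, was looked for on both strands in the 250 bases ahead of each annotated start (RefSeq, GRCm38.p6). It was present in 1 of the 12 windows of the 9 genes, that of G6pdx, and in 10.2% of all 32851 windows of that length. The windows of the 3 genes that were past 1.5-fold in any comparison with the untreated array are shown because the results turn on them, for Pgd and Idh1 at the outermost of the 2 starts listed. Capitals mark the core, which lies on the opposite strand, 57 to 49 bases ahead of the start of G6pdx. The absence of these letters from the other windows says nothing on binding elsewhere.
G6pdx, chrX:74428881-74429130, minus strand: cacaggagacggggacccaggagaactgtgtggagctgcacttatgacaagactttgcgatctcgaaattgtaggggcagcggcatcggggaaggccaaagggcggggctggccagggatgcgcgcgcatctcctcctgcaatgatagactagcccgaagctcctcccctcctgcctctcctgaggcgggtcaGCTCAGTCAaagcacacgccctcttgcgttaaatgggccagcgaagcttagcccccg
Pgd, chr4:149166706-149166955, minus strand: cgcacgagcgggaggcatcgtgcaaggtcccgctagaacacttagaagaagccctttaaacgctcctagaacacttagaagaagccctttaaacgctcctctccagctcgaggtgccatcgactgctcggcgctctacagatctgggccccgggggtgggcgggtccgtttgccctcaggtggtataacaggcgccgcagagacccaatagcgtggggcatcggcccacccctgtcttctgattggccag
Idh1, chr1:65186480-65186729, minus strand: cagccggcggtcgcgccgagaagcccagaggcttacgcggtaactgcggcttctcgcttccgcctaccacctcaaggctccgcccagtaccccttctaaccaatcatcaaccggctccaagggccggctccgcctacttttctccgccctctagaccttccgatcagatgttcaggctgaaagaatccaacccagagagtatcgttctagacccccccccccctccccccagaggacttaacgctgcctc

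All arrays lay on 1 slide, the untreated array in slide row 1 and the treated arrays in row 2, and CA77 was read in scan 2 while the others were read in scan 1. The position on the slide cannot be told apart from treatment, and the difference of CA77 from untreated also crosses scans. Between 52.2% (CA39) and 69.7% (untreated) of probes were well above background. Of 7 fibroblast marker genes, 6 were well above background on every array and Pdgfrb on CA39 alone. Since each group is a single culture, no test was possible and each difference compares 2 arrays. Values are normalized intensities on the log2 scale, in which probes are compared between arrays and never with each other. Probes printed 10 times on each array set a measurement tolerance of 0.16 (log2) for a difference between 2 arrays. This is about 1 SD of such a difference, taken over all arrays, and it holds the error within arrays and not that between cultures. In these cultures fewer cells with a transcript and less transcript per cell cannot be told apart.

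**Figure D1:**
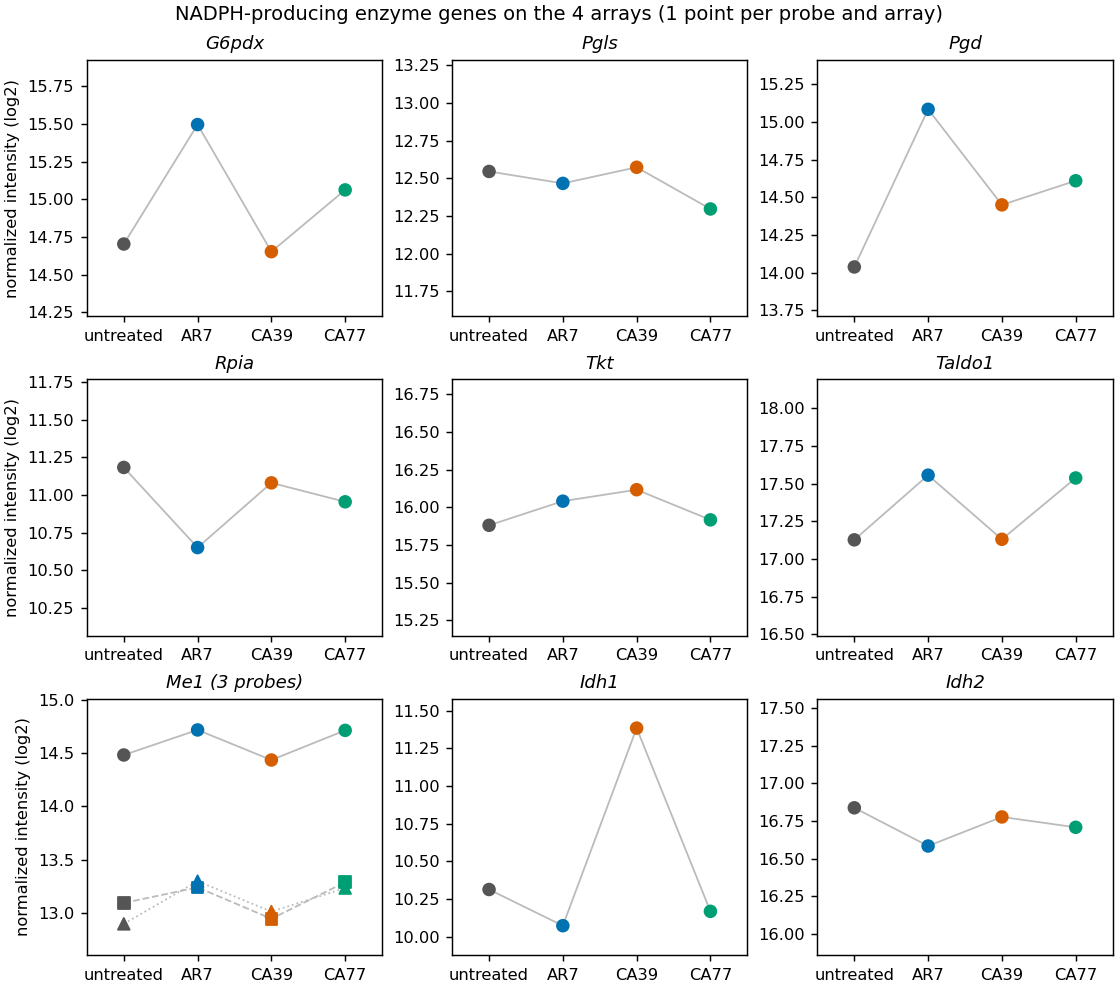
Normalized log2 intensity (y axis) of each probe of the 9 genes on the untreated, AR7, CA39 and CA77 arrays (x axis), 1 point per probe and array, with symbols and line styles that separate the 3 probes of Me1 and an axis of its own for each gene. G6pdx and Pgd were highest on AR7, Taldo1 and Me1 were high on AR7 and CA77, and Idh1 was highest on CA39.

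The NADPH-yielding dehydrogenases of the oxidative arm were highest after AR7. G6pdx, which catalyses the committed step of the pathway, was at 14.70 in untreated cells, 15.50 after AR7, 14.65 after CA39 and 15.06 after CA77. AR7 and CA77 lay above both other arrays, and CA39 lay within the tolerance of untreated. The differences from untreated were 0.79 after AR7 (1.73-fold), -0.05 after CA39 and 0.36 after CA77 (1.28-fold). Before any normalization, the spot read 26924 scanner units over its local background in untreated cells, 47967 after AR7, 26265.5 after CA39 and 31346 after CA77, which is the same order of arrays. G6pdx has a closely related autosomal copy, G6pd2, and the G6pd2 probe differed from untreated by 0.93 after AR7, -0.00 after CA39 and 0.46 after CA77. Which copy each of these probes measured is uncertain.

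Pgd, the next enzyme that yields NADPH in this arm, was at 14.04 in untreated cells, 15.08 after AR7, 14.45 after CA39 and 14.61 after CA77. It was the only member above untreated by more than the tolerance with each compound. The differences were 1.05 after AR7 (2.07-fold), 0.41 after CA39 (1.33-fold) and 0.57 after CA77 (1.49-fold), the last just under the 1.5-fold limit of 0.58. On the AR7 array, 3 of the 24 spots around Pgd (within 2 grid rows and 2 columns) deviated by at least 1 (log2) from all other arrays. After the median difference of the surrounding spots was subtracted, Pgd differed by 0.95 after AR7, 0.37 after CA39 and 0.48 after CA77. The share of all genes as high as Pgd or higher was 1.92% after AR7, 9.91% after CA39 and 4.36% after CA77.

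Pgls, the lactonase between these enzymes, did not follow them. Its values were 12.55 in untreated cells, 12.47 after AR7, 12.57 after CA39 and 12.30 after CA77. AR7 and CA39 lay within the tolerance of untreated (-0.08 and 0.03), and CA77 lay below it by -0.25. After AR7 the dehydrogenases of this arm were past 1.5-fold and its lactonase was not.

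Markers of cell types moved after AR7 as well. Of the 6 fibroblast markers that could be compared, 2 were past 1.5-fold lower (Col1a1 at -1.04 and Col3a1 at -0.73) and the median was -0.29. Of 3 endothelial markers, 1 was past 1.5-fold higher (Cdh5 at 0.62, from 7.09 to 7.70). Among the 3 leukocyte and 2 epithelial markers that could be compared, 0 were past 1.5-fold. After CA77, 2 fibroblast markers were likewise past 1.5-fold lower (median of 6 genes -0.31), and the brightest probe of the leukocyte marker Csf1r was at -0.88, while its other probes read 0.21 and -0.23. Among all genes, 3.28% were past 1.5-fold higher and 3.22% lower after AR7, and 4.26% and 3.53% after CA77. The part of the cell type markers in the differences of G6pdx and Pgd was not tested.

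In the arm that interconverts sugar phosphates, the genes went apart. Taldo1 was at 17.13 in untreated cells, 17.56 after AR7, 17.13 after CA39 and 17.54 after CA77. AR7 and CA77 were alike and high, with differences of 0.43 (1.35-fold) and 0.41 (1.33-fold), and CA39 differed by 0.00. Tkt, which works with transaldolase on the same sugars, was at 15.88, 16.04, 16.12 and 15.92 in the same order. Its differences were 0.16 after AR7, at the edge of the tolerance, 0.24 after CA39 and 0.04 after CA77. Of the 23 spots around Tkt, 5 deviated on AR7, and the difference after AR7 was 0.17 once the surrounding median was subtracted.

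Rpia, which converts ribulose 5-phosphate to ribose 5-phosphate, was lower on each treated array. It was at 11.18 in untreated cells, 10.65 after AR7, 11.08 after CA39 and 10.96 after CA77. The differences were -0.53 after AR7, -0.10 after CA39 and -0.23 after CA77, of which the value after CA39 was within the tolerance. After AR7, 4.14% of all genes were as low or lower.

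Me1 gave the only check with several probes, all of 1 accession. Its brightest probe was at 14.48 in untreated cells, 14.72 after AR7, 14.43 after CA39 and 14.71 after CA77. The second probe was at 13.09, 13.24, 12.95 and 13.29 and the third at 12.90, 13.30, 13.01 and 13.23 in the same order. On all 3 probes AR7 and CA77 lay above untreated and above CA39, by less than the tolerance for the second probe between AR7 and untreated. The differences after AR7 were 0.23, 0.15 and 0.40, and those after CA77 were 0.23, 0.19 and 0.34. After CA39 the probes disagreed in sign, at -0.05, -0.15 and 0.11, all within the tolerance.

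The isocitrate dehydrogenases showed a different order of the compounds. Idh1 was at 10.31 in untreated cells, 10.07 after AR7, 11.38 after CA39 and 10.17 after CA77. CA39 alone was high, and AR7 and CA77 differed from each other by less than the tolerance. The differences were -0.24 after AR7, 1.07 after CA39 (2.10-fold) and -0.14 after CA77. The unnormalized spot read 1279 scanner units over its background in untreated cells, 1157 after AR7, 2803 after CA39 and 1043 after CA77. Of the 21 spots around it, 0 deviated on CA39 and 2 on untreated. Once the surrounding median was subtracted, the difference was 1.13 after CA39, and that after AR7 came to -0.14, inside the tolerance.

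Idh2, its mitochondrial counterpart, was past 1.5-fold in no comparison. It was at 16.84 in untreated cells, 16.58 after AR7, 16.78 after CA39 and 16.71 after CA77, with differences of -0.25, -0.06 and -0.13. The value after AR7 was beyond the tolerance and came to -0.15 once the surrounding median was subtracted.

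Markers of other cell types moved on the CA39 array beside Idh1. Of 4 epithelial markers, Krt8 differed from untreated by 2.38 and Krt18 by 0.98 after CA39, against -0.04 and 0.21 after AR7 and -0.36 and -0.37 after CA77. Epcam was well above background on CA39 alone, where 5 spots around it deviated, and Cdh1, which defines epithelium, on 0 arrays. Of 7 fibroblast markers, 2 were past 1.5-fold higher after CA39 (Col1a1 at 1.06, and Pdgfrb as a bound), while S100a4 was at -0.22, and the median was 0.51. Of 3 leukocyte markers with a probe, 0 were past 1.5-fold after CA39, and likewise 0 of 3 endothelial markers. Among all genes, 6.93% were past 1.5-fold higher after CA39 and 4.90% lower. The part of the marker differences in that of Idh1 was not tested.

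Among 13019 symbols well above background on all arrays, those nearest to Idh1 over the 3 differences from untreated were Eid1, Pde7a and Osmr. Eid1 differed by -0.24 after AR7, 1.08 after CA39 and -0.09 after CA77 (Euclidean distance 0.055). Pde7a differed by -0.25, 1.07 and -0.21 (distance 0.062), and Osmr by -0.28, 1.10 and -0.10 (distance 0.066).

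**Figure D2:**
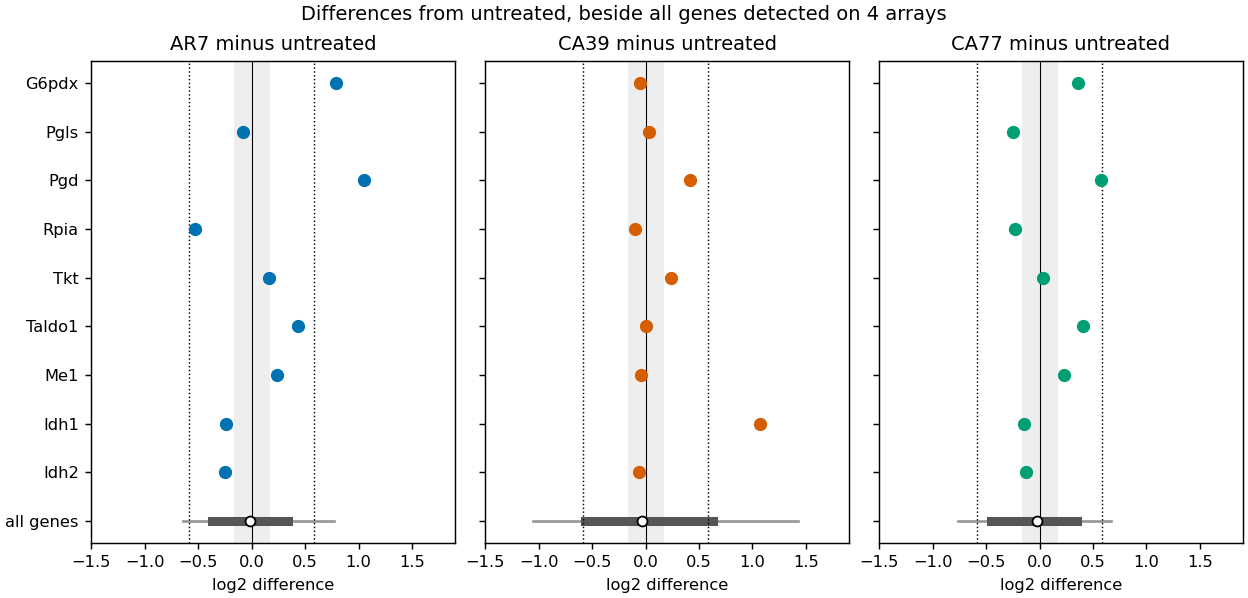
Log2 difference of each compound from untreated (x axis) for the 9 genes (colored points, brightest probe) and, in the lowest line, for all genes detected on the 4 arrays (median as open point, central 90% as thick bar, central 98% as thin bar). The grey band is the tolerance of 0.16 and the dotted lines mark 1.5-fold, which G6pdx and Pgd passed after AR7 and Idh1 after CA39.

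Counted over the list, 2 of 9 genes were past 1.5-fold higher after AR7 and 0 lower, where 3.28% of all genes were higher and 3.22% lower. After CA39, 1 gene was higher and 0 were lower, beside 6.93% and 4.90% of all genes. After CA77, 0 were higher and 0 lower, beside 4.26% and 3.53%. Measured against the tolerance, 5 genes were above it and 3 below it after AR7, where 15.0% of all genes were above and 26.2% below. With the local median subtracted, 1 gene (Rpia) was below it after AR7, and with both scalings to the 75th percentile 4 were above it, Tkt falling inside. The 2 arrays of this comparison alone gave an SD of 0.17, against which 4 were likewise above. After CA39, 3 were above and 0 below (20.9% and 32.8% of all genes), which became 2 above and 1 below with both scalings to the 75th percentile, where Tkt fell inside the tolerance and Idh2 outside it. After CA77, 4 were above and 2 below (19.5% and 30.4%). The median over the 9 genes was 0.16 after AR7, 0.00 after CA39 and 0.04 after CA77, beside -0.03, -0.02 and -0.04 over all genes. The split of all genes past 1.5-fold depended on the scaling, since 58.6% were higher after CA39 and 54.7% after CA77, against 43.8% and 39.7% when arrays were scaled to the 75th percentile. After AR7, 50.4% were higher, against 63.0% with a background offset and 69.2% with a floor at the 1st percentile.

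The 3 compounds were compared directly because they are related molecules used at the same dose and time. Between CA77 and AR7, 0 of 9 genes were past 1.5-fold (6.90% of all genes in either direction). Of the genes past it, 56.5% were higher after CA77, against 41.1% at the 75th percentile, 43.7% with the quantile-normalized processed signal, 38.1% in the series table and 41.9% with the floor at the 1st percentile. The difference was beyond the tolerance for Pgd (CA77 minus AR7, -0.47), G6pdx (-0.43), Rpia (0.30) and Pgls (-0.17, or -0.13 with the local median subtracted). Taldo1 (-0.02) and Me1 (-0.00) were within the tolerance, as were Tkt, Idh1 and Idh2. With 1 array per compound no interval between cultures can be given, so equal values do not show that the compounds act alike.

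CA39 differed from AR7 by more than 1.5-fold for 3 of 9 genes (16.9% of all genes). Idh1 was higher after CA39 by 1.31 (2.48-fold), while G6pdx (CA39 minus AR7, -0.84) and Pgd (-0.63) were lower. Pgd came to -0.58, just inside 1.5-fold, when the local median on the array was subtracted. Rpia (0.43) and Idh2 (0.19) were higher after CA39, and Taldo1 (-0.43) and Me1 (-0.28) were lower. Idh2 came to 0.12 at the 75th percentile and 0.08 in the series table, inside the tolerance. Against CA77, CA39 was past 1.5-fold for 1 of 9 genes (14.7% of all genes), Idh1, which was higher by 1.22. G6pdx (CA39 minus CA77, -0.41), Taldo1 (-0.41) and Me1 (-0.28) were lower, Pgd (-0.16) lay at the edge of the tolerance, and Pgls (0.28) and Tkt (0.20) were higher. Tkt came to 0.06 at the 75th percentile and 0.07 in the series table, inside the tolerance.

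**Figure D3:**
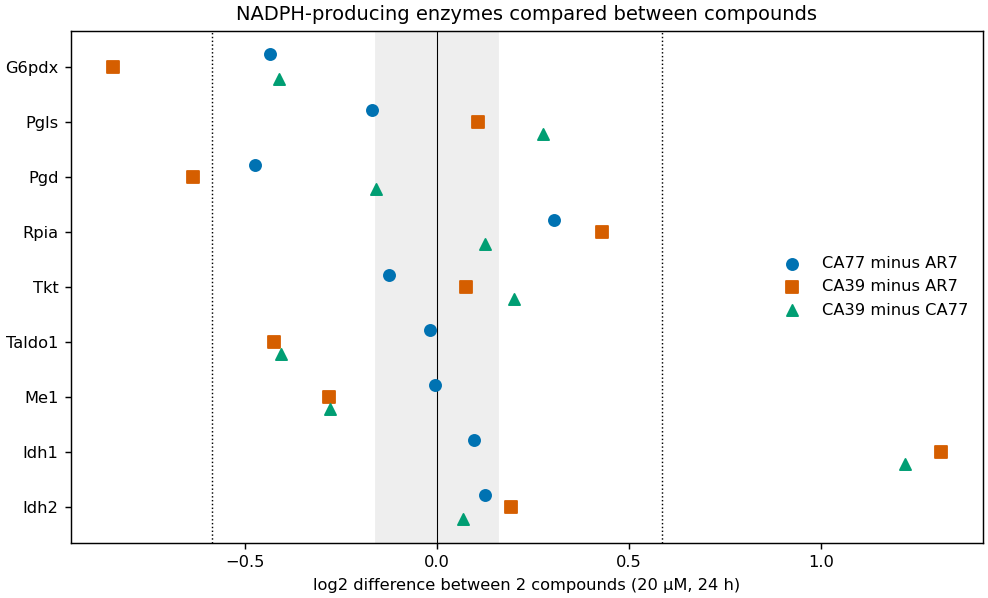
Log2 difference between 2 compounds at 20 µM and 24 h (x axis) for the 9 genes (y axis), with circles for CA77 minus AR7, squares for CA39 minus AR7 and triangles for CA39 minus CA77; the grey band is the tolerance of 0.16 and the dotted lines mark 1.5-fold. Idh1 lies far to the right for both comparisons of CA39, and G6pdx and Pgd lie farthest to the left for CA39 minus AR7.

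Other enzymes around the pathway were then examined. Of 9 further pentose phosphate genes 7 were well above background on all arrays, and past 1.5-fold from untreated there was 1, the copy G6pd2 after AR7 described above. At that limit 3.28% of all genes were higher after AR7. The endoplasmic reticulum enzyme H6pd, which makes NADPH from the same sugar, differed by -0.03 after AR7, 0.11 after CA39 and 0.16 after CA77. For the ribokinase Rbks the same differences were -0.02, -0.56 and -0.22. The transketolase-like genes Tktl1 and Tktl2 were not well above background on any array.

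A further list held enzymes around NADPH supply, not all of which make NADPH. Of its 11 genes with a probe, 2 were past 1.5-fold lower after AR7, 2 were higher after CA39, and 0 passed in either direction after CA77. Beside these, 3.22% of all genes were lower after AR7 and 6.93% were higher after CA39. After CA77, 4.26% of all genes were higher and 3.53% lower. Aldh1l1, which makes NADPH while oxidizing formyl-tetrahydrofolate in the cytosol, was at 8.46 in untreated cells, 7.81 after AR7, 11.60 after CA39 and 7.92 after CA77. Its difference after CA39 was 3.14, and 4 spots around it deviated on that array. It was 3.07 after subtraction of the surrounding median, and the difference after AR7 was -0.65. Aldh1l2, the mitochondrial form, differed by 0.23 after AR7, 0.80 after CA39 and -0.12 after CA77. Me3, a mitochondrial malic enzyme, stood at -0.74, -0.09 and -0.43 from untreated. Another of its probes read -0.89, -0.28 and -0.70, and the last was not well above background. Nnt was not analysed here. The kinase Nadk, which makes the NADP that these enzymes reduce, stood at -0.38, -0.25 and -0.27, while its other probe read 0.10, -0.12 and 0.10.

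The NAD-linked enzymes that run parallel reactions were counted too. Of 5 genes (Idh3a, Idh3b, Idh3g, Mdh1 and Mdh2), 0 were past 1.5-fold from untreated with any compound. Among all genes 3.28% were higher and 3.22% lower after AR7, 6.93% and 4.90% after CA39, and 4.26% and 3.53% after CA77. At such shares 0 of 5 says little. The range was -0.14 to -0.04 after AR7, -0.18 to 0.04 after CA39 and -0.23 to 0.06 after CA77. Below the tolerance were 0 after AR7, 1 after CA39 (Idh3a, -0.18) and 2 after CA77 (Idh3b, -0.21, and Idh3g, -0.23). The shares of all genes below it were 26.2%, 32.8% and 30.4%.

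Enzymes that spend NADPH were examined in the same way. All 13 described here were well above background on every array, and past 1.5-fold higher there were 3 after AR7, 4 after CA39 and 2 after CA77. The shares of all genes were 3.28%, 6.93% and 4.26%. The quinone reductase Nqo1 was at 10.94 in untreated cells, 13.19 after AR7, 11.31 after CA39 and 13.23 after CA77, with differences of 2.25, 0.37 and 2.29. Blvrb, a biliverdin and flavin reductase, differed by 1.47, 0.31 and 1.07, and Txnrd1, the cytosolic thioredoxin reductase, by 0.63, -0.19 and 0.18. On each of these genes AR7 and CA77 lay above CA39.

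Fasn, Sqle and Dhcr7, which act in fatty acid and sterol synthesis, had CA39 as their highest array. Fasn, the fatty acid synthase, differed by -0.40 after AR7, 0.97 after CA39 and -0.70 after CA77. Sqle, the squalene epoxidase, differed by -0.34, 0.65 and -0.31, and Dhcr7, a reductase of sterol synthesis, by -0.48, 0.67 and -0.47. The carbonyl reductases went opposite ways after CA39, since Cbr3 was 2.81 above untreated and Cbr1 was at -0.67. Cbr3 was at 6.86 in untreated cells, where the lowest detected signal of the array was 5.15. It differed by 0.52 after AR7 and 0.36 after CA77, and Cbr1 by 0.01 and 0.08. After AR7, 0 of the 13 were past 1.5-fold lower, after CA39 there was 1 (Cbr1) and after CA77 there was 1 (Fasn). For all genes the shares were 3.22%, 4.90% and 3.53%.

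**Figure D4:**
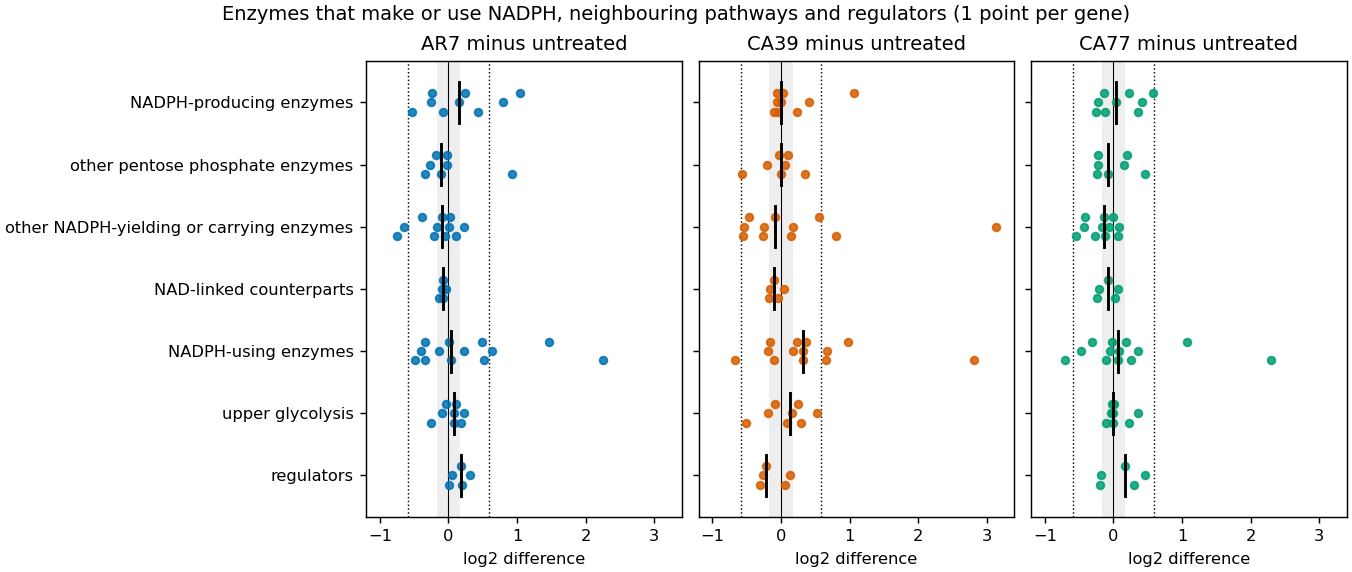
Log2 difference of each compound from untreated (x axis), 1 point per gene, for the 9 NADPH-producing enzymes and for the other lists (y axis), with the median of each list as a black bar, the tolerance of 0.16 as a grey band and 1.5-fold as dotted lines. NAD-linked counterparts stay within -0.23 and 0.06 in all panels, while NADPH-using enzymes reach 2.25 after AR7, 2.81 after CA39 and 2.29 after CA77.

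The members past 1.5-fold from untreated stayed so under the 5 of 9 alternatives of processing that could change their values. These were the scalings, the background offset, the series table and the local median, while the others left their values as they were. Over them G6pdx ranged from 0.72 to 0.79 after AR7, Pgd from 0.91 to 1.05 after AR7 and Idh1 from 1.04 to 1.16 after CA39. Pgd after CA77 ranged from 0.48 to 0.57 and passed 1.5-fold under 0 of these. Rpia after AR7 ranged from -0.55 to -0.41. For 5 genes within the tolerance after CA39 (G6pdx, Pgls, Taldo1, Me1 and Idh2) the sign was not the same under all alternatives.

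**Figure D5:**
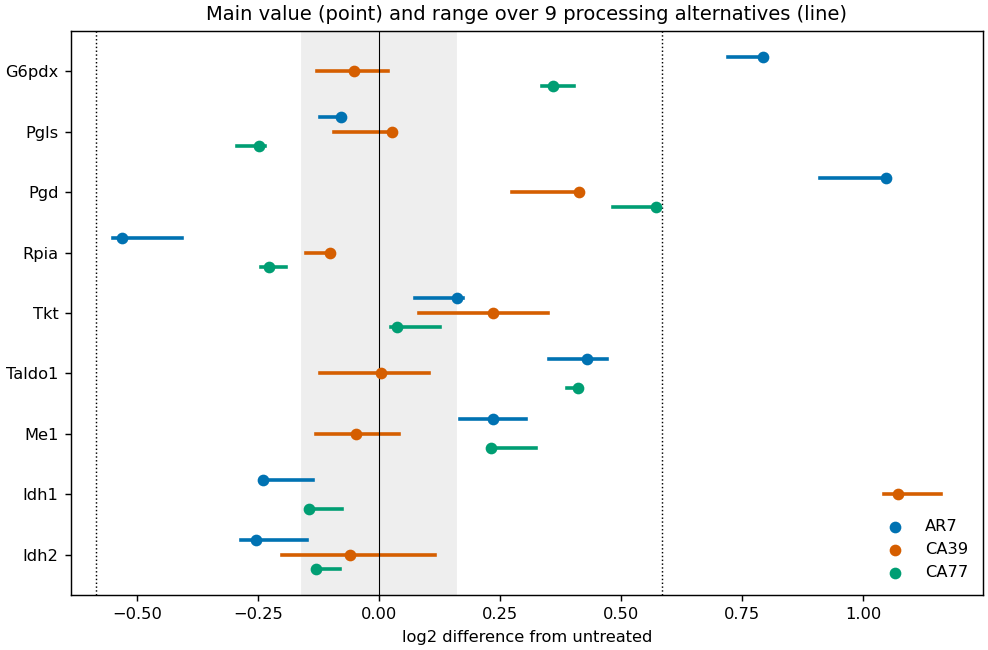
Log2 difference from untreated (x axis) for the 9 genes (y axis) and each compound, with the reported value as a point and the range over 9 processing alternatives as a line, of which 5 changed these values; the grey band is the tolerance of 0.16 and the dotted lines mark 1.5-fold. The lines of G6pdx and Pgd after AR7 and of Idh1 after CA39 stay beyond 1.5-fold throughout.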

How the data were processed

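Total RNA of 4 cultures was labelled with Cy3 by the authors and hybridized to Agilent mouse arrays. The deposited scanner files hold linear spot intensities with a local background, extracted with Feature Extraction 10.7.3.1, and the deposited series table holds the background-subtracted intensity of all 62976 spots per array. The methods name RMA through oligo, and those values were not used here. Deposited marks of 0 or 1 per spot (unit other) gave detection and outliers.

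Median intensities were corrected with normexp (limma 3.58.1, R 4.3.3) without an offset, quantile normalized over 59305 gene spots and put on the log2 scale. Spots marked non-uniform or outlying were left out (142 on untreated, 321 to 328 on the treated arrays) and 0 were saturated. Detection asked that more than 50% of a probe's spots be well above background. Accessions were matched without versions to RefSeq genes of GRCm38.p6, which named 27512 of 55378 probes. The array design is on an earlier build. The probe with the highest mean stood for a gene. Genes not detected on either array of a comparison were left out of the shares of all genes, and an undetected value below the lowest detected signal of its array was raised to that signal, and a difference was set to 0 where the higher value was the undetected one. A gene was called past 1.5-fold when it differed by at least 0.58 (log2). Members, lists and limits were chosen with earlier results of these data known. Named are all members, genes of the other lists past 1.5-fold in any comparison, and the 3 symbols nearest to the member of widest range. Other genes that are named, from the same lists and marker lists, were picked with their values in view. Some genes of the list of NADPH-using enzymes are not reported here, for a reason unrelated to their values, and were left out of its counts, which describe the genes kept and not the whole list. The computation was tested on simulated data. The alternatives were scaling of the processed signal to its 75th percentile or by quantiles, an offset of 50, the series table, flagged spots kept, the median over probes, no floor, a floor at the 1st percentile, a 2-fold limit, only genes detected on all arrays, and subtraction of the local median within 10 grid rows and 5 columns.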

Additional observations from a re-analysis of the deposited data

How the results depend on the processing

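Of the 9 alternatives, 5 changed the members' values against untreated. Of 30 medians that changed at all, 30 moved by less than the tolerance of 0.16. Member counts past 1.5-fold left the range of 1.5 times the reported one only under the 2-fold limit, stricter by construction. It left 1 gene higher after AR7 and 1 gene in either direction between CA39 and AR7. Genes below the tolerance numbered 1 after AR7 with the local median subtracted and 1 after CA39 both at the 75th percentile and in the series table. Of 271 values of single genes that changed at all 270 moved by less than the tolerance, and Idh2 after CA39 moved to 0.11 when the local median on the array was subtracted. The median after CA39, at 0.00, changed sign under some alternatives, within -0.12 and 0.10. Shares over all genes moved more. Genes past 1.5-fold lower after AR7 numbered 898, against 457 with an offset of 50 and 405 with the floor at the 1st percentile. After CA39 they numbered 1367, against 2434 at the 75th percentile and 2399 in the series table. After CA77 they numbered 994, against 2077 at the 75th percentile, 2002 in the series table, 1586 with the quantile-normalized processed signal and 524 with the offset. Genes higher after CA77 than after AR7 numbered 988, against 503 with the floor at the 1st percentile. The cause was not tested. No paired analysis was possible because each group held 1 array, and no array could be left out. Precision is limited by 4 arrays, and the members' spots were bright enough for detection on all of them.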

Other observations

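Upper glycolysis shares glucose 6-phosphate and fructose 6-phosphate with the pentose phosphate pathway. On the brightest probes 0 of its 8 genes were past 1.5-fold from untreated with any compound. At shares of all genes between 3.22% and 6.93% in each direction, 0 of 8 says little. Above the tolerance were 2 genes after AR7, 4 after CA39 and 2 after CA77, beside 15.0%, 20.9% and 19.5% of all genes. Below it were 1, 2 and 0, beside 26.2%, 32.8% and 30.4%. The other probe of Pfkp read -0.59 after CA77, past 1.5-fold, where the brightest read -0.11. The median difference over the 8 upper glycolysis genes was 0.08 after AR7, 0.13 after CA39 and -0.01 after CA77. Aldoa, the aldolase, was highest after CA39 (0.53), and Tigar, a phosphatase that diverts sugar to the pentose phosphate pathway, was lowest after CA39 (-0.51, and -0.48 on its other probe). Tigar differed by 0.09 after AR7 and by -0.01 after CA77.

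Of 5 regulators known to act on these genes, 0 were past 1.5-fold from untreated. At shares of all genes between 3.22% and 6.93% in each direction, 0 of 5 says little. Differences between compounds were not counted for the regulators. Nfe2l2, which encodes NRF2, differed from untreated by 0.20 after AR7, -0.22 after CA39 and 0.46 after CA77. Keap1, which encodes its inhibitor, differed by 0.01, -0.27 and -0.19, and Bach1, a repressor at the same elements, by 0.18, 0.06 and 0.30. Srebf1, which encodes a regulator of lipid synthesis, differed by 0.06, 0.13 and 0.16, and Trp53 by 0.31, -0.31 and -0.19.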
